A study of Mus musculus with 2 samples.

Results

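The genes described here are the nuclear genes of respiratory complex I, taken as every gene entry whose identifier maps to a symbol starting with Nduf. There were 49 such entries among 43346 gene entries, and 1 further entry with a pseudogene symbol (Ndufab1-ps) was left out. They comprised 36 complex I subunits, 8 assembly factors (Ndufaf genes), the pair Ndufa4 and Ndufa4l2, and 3 processed copies (Ndufb4c, Ndufa11b and Ndufs6b). No entry had the symbol Ndufb1, so this subunit is not among the 36.

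RNA with a poly(A) tail was sequenced from both fragment ends in G1E-ER4, an immortalized mouse erythroid line without functional Gata1 of its own. The line carries GATA1 joined to an estrogen receptor's ligand-binding part, so that estradiol switches GATA1 activity on and the cells mature toward red cells. Both libraries, replicates 1 and 2, came from male G1E-ER4 cells given 10 nM 17beta-estradiol for 24 h. As both libraries point to 1 biosample record, differences between replicates could be technical. Untreated cells were not analysed here. All 10 erythroid markers checked (Gata1 included, perhaps with introduced GATA1 reads) reached 1 TPM (transcripts-per-million, a level corrected for length) in both libraries. Of 21 markers of 7 other cell types, 2 megakaryocyte genes did, 6 were at 0 in both, and their summed level was 22.2 TPM in replicate 1 and 34.9 TPM in replicate 2. Total estimated counts were 70451042 and 13841487, a depth ratio of 5.09, and a count of 0 allows up to 0.0426 and 0.217 CPM (counts-per-million), taking 3 counts as the limit. Intervals and limits cover counting error only.

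Complex I is the entry point of the mitochondrial respiratory chain: it takes electrons from NADH, passes them along a row of iron-sulfur clusters to ubiquinone, and pumps protons across the inner membrane. Its matrix arm holds the NADH and ubiquinone sites, and its membrane arm holds the proton pumps, whose core is encoded by mitochondrial DNA. Nuclear core subunits carry the redox centers, accessory subunits surround the core, and assembly factors help to build the complex without staying in it. Maturing red cells keep mitochondria while they make heme, and clear them at the end.

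One pair of genes could not be told apart by sequence over part of the longer transcript (40.2% of it). Reads of this pair bear on the highest value among the 49 entries. Ndufb4c (chromosome 15, a processed pseudogene of 390 bases) matched bases 95 to 484 of the coding Ndufb4 transcript (971 bases) with 390 of 390 bases identical, which is the whole coding part of Ndufb4, an accessory subunit of the distal membrane arm encoded on chromosome 16. The first 120 bases of this shared stretch, with the start codon in capitals, show the sequence to which reads of either gene would align (mm10, chr15:73809777-73809896, minus strand, from GENCODE transcripts).

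Ndufb4c and Ndufb4: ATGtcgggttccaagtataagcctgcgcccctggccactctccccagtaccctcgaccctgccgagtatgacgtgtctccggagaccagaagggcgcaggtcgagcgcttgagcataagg

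Of the counts of this pair, 89.6% were placed on Ndufb4c in replicate 1 and 92.1% in replicate 2. Ndufb4c was therefore listed at 1257 TPM in replicate 1 and 5634 TPM in replicate 2, and Ndufb4 at 42.5 and 149 TPM. The split between the copies is uncertain. Summed, they reached 1299 TPM in the first library and 5782 TPM in the second, a mean of 3541 ± 3170 TPM (SD, n = 2). The summed TPM still depends on the split, since TPM is corrected for length and the transcripts have 390 and 971 bases. The summed counts, which do not depend on it, were 5.18-fold higher in replicate 2 after scaling. The other copies held almost no reads: Ndufa11b, 94.8% identical to its parent Ndufa11 over 424 aligned bases, had 0 counts in both libraries, and Ndufs6b, 96.6% identical to Ndufs6 over 348 bases, had 1 and 0 counts.

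The subunits were expressed almost throughout, at levels far above those of the assembly factors. At least 1 TPM in both libraries was reached by 34 of 36 subunits and by 6 of 8 assembly factors, beside 17.2% of all gene entries and 33.1% of protein-coding ones. The median subunit was at 126.5 TPM in replicate 1 and 27.1 TPM in replicate 2, and the median assembly factor at 5.60 and 2.60 TPM. The ratio of these medians was 22.6 in replicate 1 and 10.4 in replicate 2, a log2 ratio of 3.94 ± 0.79 (SD, n = 2). With 2 libraries the smallest p an exact two-sided sign-flip test can give is 0.5, so the ratio carries no p-value here. Of all counts in replicate 1, subunits held 0.370% (Wilson interval at 95%, 0.369 to 0.372%), and 0.233% of those in replicate 2 (0.231 to 0.236%). Assembly factors held 0.00698% (0.00679 to 0.00718%) and 0.00326% (0.00297 to 0.00357%).

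**Figure D1:**
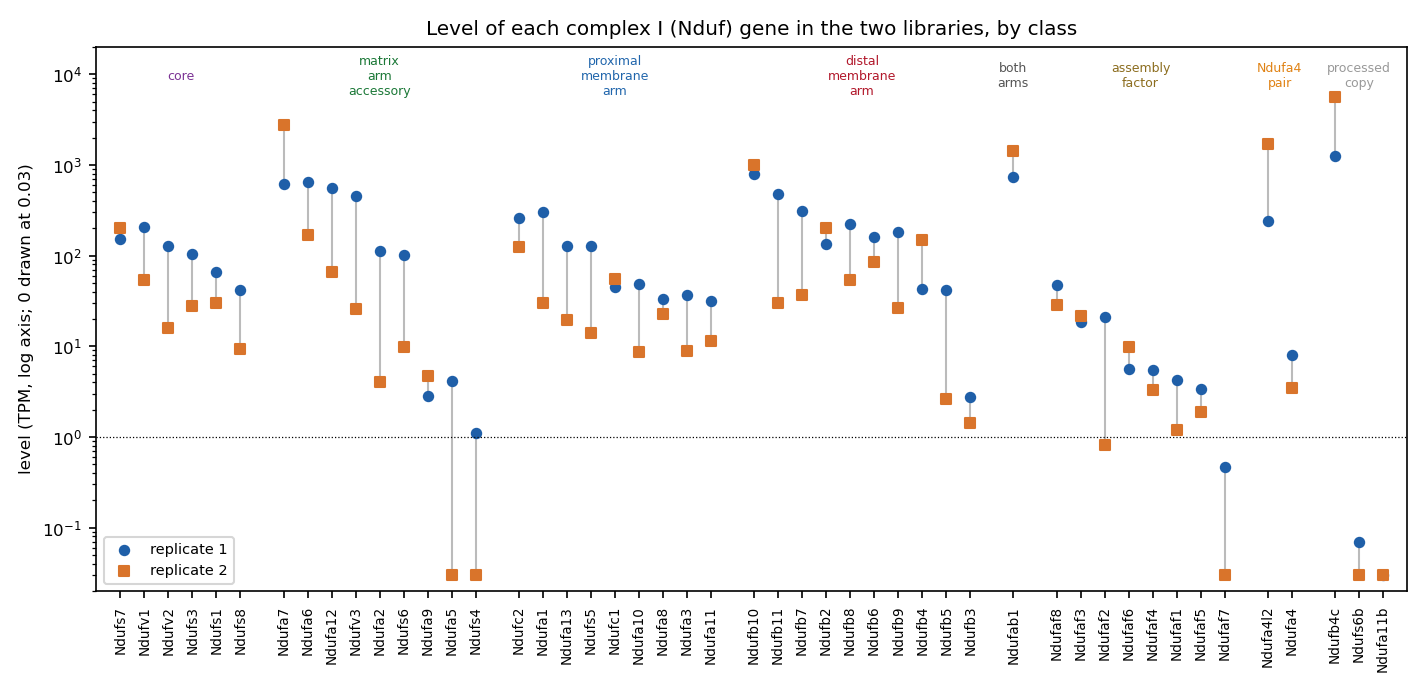
Level of 48 of the 49 genes in TPM (log axis; genes at 0 are drawn at 0.03) in replicate 1 (circles) and replicate 2 (squares), grouped by class, with a dotted line at 1 TPM. Core subunits lie between 9.23 and 204.4 TPM, while the matrix arm accessory subunits run from 0 to 2761 TPM, and most pairs of points have the replicate 1 value above.

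To set the libraries side by side, counts were scaled by TMM and each gene was tested with an exact binomial test, so the test compares these libraries and not conditions, and covers counting error only. A gene was called lower or higher in replicate 2 with a Benjamini-Hochberg adjusted p under 0.05 over all genes tested and a difference of at least 2-fold. Of the 8884 genes tested, 30.0% were called lower and 17.9% higher, with a median log2 ratio (replicate 2 over replicate 1, TMM-scaled counts) of -0.20. Gene lengths in the tables follow each library's transcripts, so the ratio of counts and that of TPM can differ. Against this background 23 of 35 tested subunits were called lower, 3 were called higher and 9 were not called, with a median log2 ratio of -1.87. The ratios ran from -4.61 (Ndufa2) to 2.34 (Ndufa7), leaving aside Ndufa5, which had 0 counts in replicate 2. Of 7 tested assembly factors 3 were called lower and 1 higher, with a median log2 ratio of -0.87. Scaling by total counts gave 5 lower and 0 higher among them, beside 40.1% lower and 10.6% higher of all genes tested. Few counts stood behind the assembly factor calls, 451 over all assembly factors in replicate 2.

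**Figure D2:**
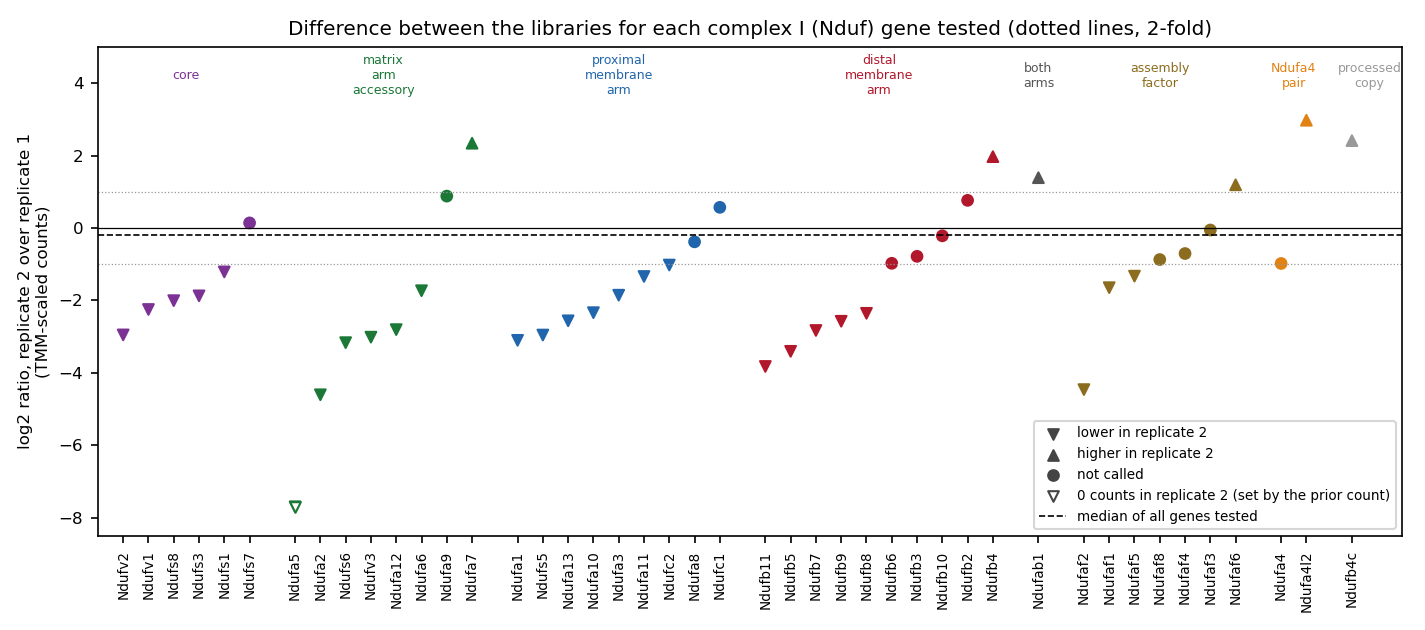
Log2 ratio of replicate 2 over replicate 1 (TMM-scaled counts) for 44 of the 45 genes tested, by class. Triangles mark genes called lower or higher, circles those not called, the open triangle Ndufa5 with 0 counts in replicate 2, and the dashed line the median of all genes tested (-0.20). Most subunits lie below the line, and Ndufa7, Ndufb4 and Ndufab1 are the subunits called higher.

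The 7 nuclear core subunits all passed 1 TPM in both libraries. Ndufs7, which lines the ubiquinone site, had 151.7 TPM in replicate 1 against 199.7 TPM in replicate 2, and was not called (log2 ratio 0.14, and -0.26 when scaled by total counts). Ndufv1, which binds NADH and the flavin, had 204.4 and 54.0 TPM and was 4.76-fold lower in replicate 2 on scaled counts. Its neighbor in the NADH module, the iron-sulfur protein Ndufv2, had 127.0 and 15.9 TPM, a 7.74-fold difference. Of the remaining core genes, the largest subunit Ndufs1 had 65.2 and 30.2 TPM, and Ndufs3, a scaffold of the ubiquinone module, 104.2 and 27.6 TPM. Ndufs8, which carries iron-sulfur clusters next to the ubiquinone site, had the lowest mean of the core genes, with 41.5 and 9.23 TPM. These 3 were called lower with log2 ratios of -1.21, -1.87 and -2.01. In all 5 of 7 core genes were called lower and 0 higher.

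The accessory subunits of the matrix arm had the widest range. Ndufa7 (ENSMUSG00000041881.8, chromosome 17, 33824572 to 33838317, plus strand) had the highest mean level of the subunits as listed, with 620.7 TPM in replicate 1 (15489 counts) and 2761 TPM in replicate 2 (11705 counts), and was called higher (log2 ratio 2.34). In replicate 1 alone Ndufb10, Ndufab1 and Ndufa6 were above it. Ndufa6, a protein of the LYR family that holds acyl carrier protein, had 646 and 169.7 TPM, and Ndufa12 had 550 and 65.7 TPM. Both were called lower, with log2 ratios of -1.73 and -2.81. Ndufa2, a small protein with a thioredoxin fold, had 113.5 and 4.05 TPM, a 24.5-fold difference, the largest of any subunit with counts in both libraries. Ndufs6, which binds zinc, had 101.6 and 9.80 TPM, and Ndufv3, of the NADH module, 459 and 25.5 TPM (log2 ratios -3.17 and -3.02). The lowest means of the class were those of Ndufa9, Ndufa5 and Ndufs4. Ndufa9, at the junction of the arms, had 2.84 and 4.73 TPM and was not called. Ndufa5 had 180 counts (4.10 TPM) in replicate 1 and 0 in replicate 2, at least 8.95-fold lower against the limit of 3 counts in replicate 2. Ndufs4, whose loss in mice causes a Leigh-like brain disease, had 105 counts (1.10 TPM) and 0, at least 5.22-fold lower, and its mean CPM was too low for the test. Of 8 tested members 6 were called lower and 1 higher.

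In the proximal membrane arm 7 of 9 accessory subunits were called lower and 0 higher. Ndufc2 had the highest mean of the class, with 257.7 TPM in replicate 1 and 123.9 TPM in replicate 2, just past 2-fold (log2 ratio -1.02), and missed 2-fold with DESeq2 size factors (-0.95). Ndufa1, a small X-linked subunit, had 303.8 and 30.0 TPM (log2 ratio -3.10), and Ndufa13, also known as GRIM-19, had 126.5 and 19.3 TPM (-2.56). Ndufs5, which faces the intermembrane space, had 126.5 and 14.0 TPM (-2.96). The lowest means were those of Ndufa8 (33.6 and 23.0 TPM, not called), Ndufa3 (37.2 and 8.81 TPM, called lower) and Ndufa11 (32.0 and 11.5 TPM, called lower). The level of Ndufa11 rests on a transcript of 2661 bases in the deposited table, against 545 bases in the later GENCODE M21 release, the only coding transcript of the 49 genes whose length differed by more than 1.5 times. Ndufc1, with 44.7 and 55.6 TPM, was the other member not called, and Ndufa10, with 48.6 and 8.58 TPM, was called lower (log2 ratio -2.34).

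The 10 distal membrane arm subunits with an entry (Ndufb2 to Ndufb11) were split: 5 were called lower, 1 higher and 4 were not called. Ndufb10, with cysteine pairs that face the intermembrane space, had 791.6 TPM in replicate 1 against 1003 TPM in replicate 2, a log2 ratio of -0.22 on scaled counts. Ndufb11, another X-linked subunit (ENSMUSG00000031059.9, chromosome X, 20615326 to 20617619, minus strand), had 474 and 29.9 TPM, a 14.2-fold difference, and Ndufb7 311.7 and 36.6 TPM, a 7.12-fold difference. The lowest were Ndufb3, with 2.75 and 1.41 TPM and not called (116 and 10 counts, exact binomial adjusted p = 0.12), and Ndufb5, with 41.7 and 2.64 TPM and 10.7-fold lower. Ndufb4, among the 3 lowest by its own entry, was the 1 called higher (log2 ratio 1.97), with the reservation of its identical copy. The remaining members Ndufb2, Ndufb6, Ndufb8 and Ndufb9 had 135.9 to 220.7 TPM in replicate 1 and 26.6 to 200.9 TPM in replicate 2. Of these Ndufb8 and Ndufb9 were called lower, and Ndufb2 and Ndufb6 were not called.

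Ndufab1, the mitochondrial acyl carrier protein, is bound in both arms and also serves fatty acid synthesis. It had 731 TPM in replicate 1 against 1413 TPM in replicate 2 and was called higher with a log2 ratio of 1.39. When libraries were scaled by total counts the log2 ratio was 0.99, under 2-fold. The estimated counts of Ndufab1 were not whole (18061.8 and 7055.56), and the left-out Ndufab1-ps was not compared with it.

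The assembly factors had a lower median level than each class of subunit in both libraries. Ndufaf8, the partner of Ndufaf5, was the highest with 47.0 TPM in replicate 1 and 28.9 TPM in replicate 2, followed by mean level by Ndufaf3 with 18.6 and 21.7 TPM. Neither was called. Ndufaf4, which acts with Ndufaf3 on the ubiquinone module, had 5.50 and 3.28 TPM and was not called. Ndufaf2, a relative of Ndufa12 that holds its place during assembly, had 20.9 and 0.81 TPM (758 and 5 counts), 22.6-fold lower in replicate 2. Ndufaf1, which helps to build the membrane arm, had 4.30 and 1.20 TPM (317 and 15 counts), and Ndufaf5, which modifies Ndufs7, 3.40 and 1.91 TPM (153 and 9 counts). Both were called lower, with log2 ratios of -1.65 and -1.33 (exact binomial test, adjusted p = 5.8e-07 and 0.0041). Ndufaf6 alone was called higher, with 5.69 and 9.82 TPM (108 and 37 counts, log2 ratio 1.19, adjusted p = 9.6e-05 by the exact binomial test), and fell short of 2-fold when scaled by total counts (0.80). Ndufaf7, a methyltransferase, had 69 and 0 counts, at least 3.43-fold lower, and was not tested. Of 12 measured assembly factors with other names 9 reached 1 TPM in both libraries, and of 11 tested 6 were called lower and 1 higher, with a median log2 ratio of -1.12. Dmac1 was the highest (135.3 and 55.0 TPM) and Timmdc1 the 1 called higher (19.3 and 49.2 TPM).

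Ndufa4 and Ndufa4l2 lay far apart. Ndufa4, now counted as a subunit of complex IV, had 7.93 TPM in replicate 1 against 3.46 TPM in replicate 2 (186 and 14 counts) and was not called, with a log2 ratio of -0.98 and an exact binomial adjusted p of 0.012. Its relative Ndufa4l2 (ENSMUSG00000040280.9, mm10 chromosome 10, 127514967 to 127517154, plus strand), known as a gene induced by low oxygen, had 238.9 and 1683 TPM (13309 and 15616 counts). It exceeded Ndufa4 in both libraries, and its difference between the libraries, 7.87-fold higher in replicate 2, was the largest upward one among the 45 genes tested.

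For the subunits encoded by mitochondrial DNA, 5 of 7 were called lower in replicate 2 and 1 higher. mt-Nd2 was the 1 called higher, with 301.1 TPM in replicate 1 and 608.8 TPM in replicate 2. mt-Nd5 had 283.4 and 82.1 TPM and mt-Nd1 382.7 and 89.3 TPM. mt-Nd3 had 431 and 0 counts and mt-Nd4l 1228 and 0. The 7 genes took 0.127% of counts in replicate 1 (0.126 to 0.128%) and 0.0642% in replicate 2 (0.0628 to 0.0655%).

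Other sets give the scale for the subunits' difference, beside 30.0% called lower and 17.9% higher over all genes tested. Among nuclear genes of complexes II to V, 15 of 41 tested were called lower and 3 higher, with a median log2 ratio of -0.50. Among mitochondrial ribosomal protein genes 28 of 70 were lower and 7 higher, with a median of -0.81. Cytosolic ribosomal protein genes, a set added after the data were seen, had 50 of 77 lower and 4 higher and a median of -1.59. The sets were not tested against each other, since genes of 1 library pair are not replicates.

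**Figure D3:**
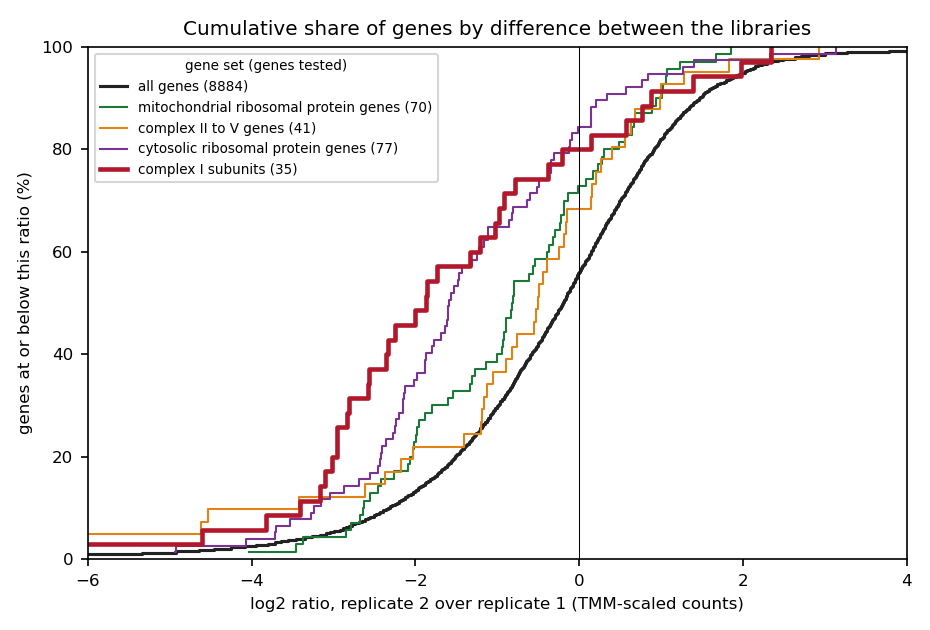
Cumulative percent of genes (vertical axis) at or below each log2 ratio of replicate 2 over replicate 1 (horizontal axis, drawn from -6 to 4) for complex I subunits, complex II to V genes, the ribosomal protein gene sets and all genes tested. The subunit curve lies left of the curve of all genes, near that of the cytosolic ribosomal protein genes, with medians of -1.87, -1.59 and -0.20.

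Length, level and base composition moved with the difference between the libraries. In the 2221 shortest of the genes tested, 38.8% were called lower and 16.1% higher, with a median log2 ratio of -0.55. These held 30 of the 35 tested subunits, of which 19 were called lower, with a median of -1.86. When coding genes were placed in 4 groups of rising G and C content, the median log2 ratios of all genes were -0.58, -0.54, -0.27 and 0.30. Those of the 3, 10, 14 and 8 subunits in these groups were -0.78, -1.12, -2.11 and -2.13, so the subunits lay close to the other genes in the group poorest in G and C. Genes under 10, from 10 to 100 and from 100 to 1000 mean CPM had medians of -0.65, -0.22 and 0.47, while the 6, 23 and 6 subunits in these ranges had -1.32, -2.25 and -0.97. The part of length, base composition and level in the subunits' values was not tested beyond these ranges. Of the globin genes among the markers, the beta globin genes Hbb-bs and Hbb-bt were called lower in replicate 2 (log2 ratios -1.23 and -3.16). The alpha globin gene Hba-a1 was not called (-0.18). With globin and mitochondrially encoded genes taken out of the TPM, the median subunit was at 164.7 TPM in replicate 1 and 29.6 TPM in replicate 2. Over the 36 subunits the TPM of the libraries gave a Spearman rho of 0.75, and over all 8884 genes tested 0.84, as descriptions across genes of 2 libraries of unequal depth.

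For some subunits the gene's TPM lay mostly in transcripts that are not annotated as coding, although the median coding share was 92.4% in replicate 1 and 97.6% in replicate 2. Of 23 subunits with at least 1 TPM in both libraries and several transcripts, the leading transcript was not protein coding in 6 in replicate 1 and in 9 in replicate 2, and those 6 were among the 9. The lead was the same transcript in both libraries for 17 of 23. Counting coding transcripts only, the median subunit was at 52.0 TPM in replicate 1 and 15.0 TPM in replicate 2. Coding transcripts held 65.9% and 58.9% of the summed subunit TPM. The examples were chosen for a large noncoding part after their values were seen. In Ndufa12 a retained-intron transcript of 428 bases, held 96.7% of the gene's TPM in replicate 1 and 92.0% in replicate 2, leaving 18.4 and 5.25 TPM for the coding transcripts. A retained-intron transcript of 443 bases held 92.8% and 86.4% of the TPM of Ndufab1, and one of 422 bases 86.0% and 97.9% of that of Ndufb2. Ndufv1, of the core, had 32.3 TPM in coding transcripts in replicate 1 and 0.37 TPM in replicate 2. By contrast Ndufa7 had 92.4% and 98.8% of its TPM in coding transcripts.

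The similar gene levels of Ndufb10 hid different transcripts. A retained-intron transcript of 834 bases held 95.9% of the gene's TPM in replicate 1 and 11.1% in replicate 2. A processed transcript of 516 bases held 0.53% in replicate 1 and 88.4% in replicate 2. The coding transcripts of Ndufb10 had 27.9 and 4.92 TPM. Ndufb8 was led by a coding transcript of 680 bases in replicate 1 (85.3%, against 14.8% in replicate 2) and by a retained-intron transcript of 450 bases in replicate 2 (81.2%, against 10.8% in replicate 1). Among the 6 assembly factors that could be examined, the lead was not coding in 4 in replicate 1 and 5 in replicate 2, and for Ndufaf6, the 1 called higher, coding transcripts had 0.39 and 0 TPM. These splits rest on reads shared between overlapping transcripts and are estimates.

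**Figure D4:**
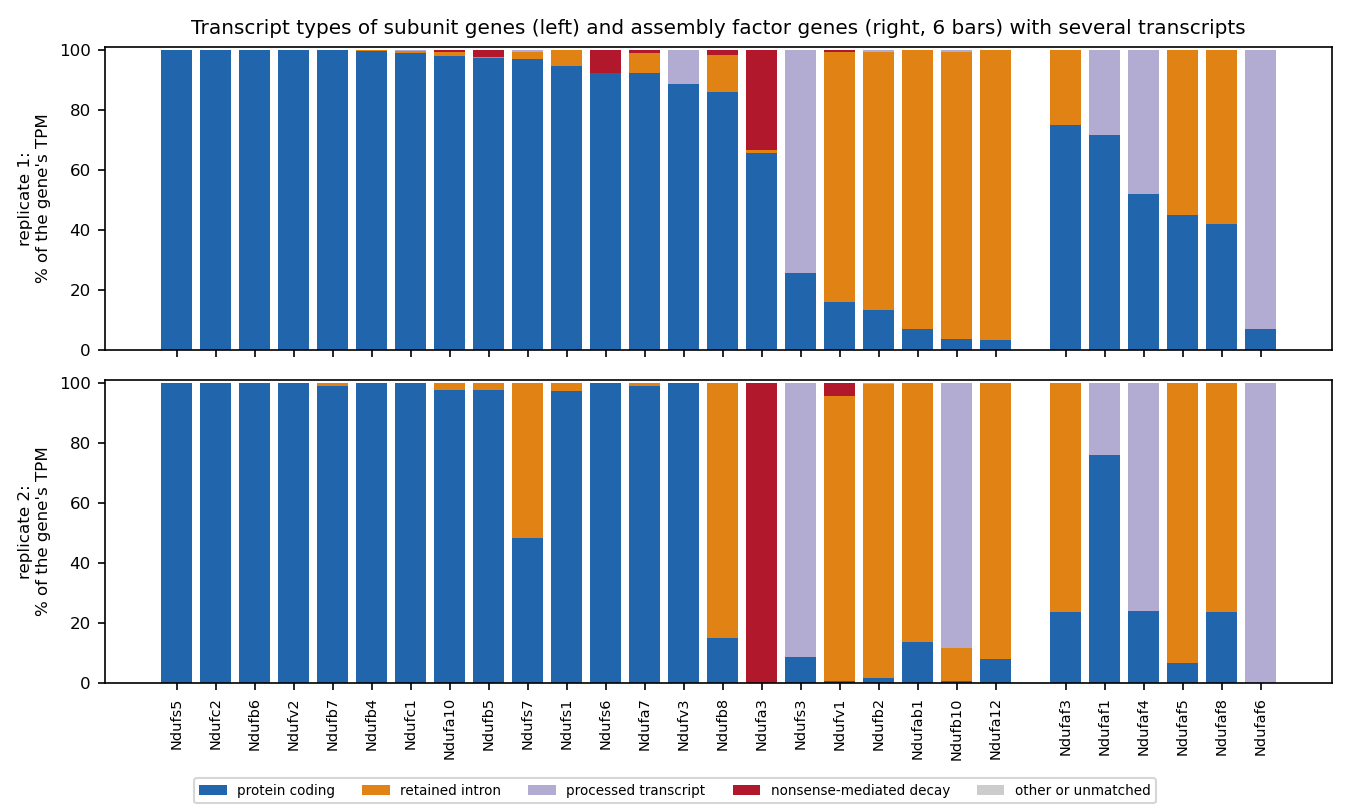
Percent of each gene's TPM (vertical axis) by annotated transcript type in replicate 1 (upper panel) and replicate 2 (lower panel), for 22 of the 23 subunit genes and the 6 assembly factor genes with several transcripts and at least 1 TPM in both libraries. Noncoding types fill most of the bar for 6 subunits in replicate 1 and 9 in replicate 2, and Ndufb10 changes from retained intron to processed transcript.

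Neighboring genes also touch these values. In GENCODE M21, 19 of the 49 genes share exon bases with another gene, 16 of them only with genes on the opposite strand, and whether the counting used strand is not stated in the labels or tables used. Ndufb11 shares 117 bases with Rbm10, Ndufa2 66 with Tmco6, Ndufb6 257 with Smim27, Ndufb5 616 with Mrpl47 and Ndufa4l2 32 with Shmt2. If strand was not used, the counts of these genes are uncertain to that extent. The estimated counts of these members were whole numbers, as for Ndufb6 (4496 and 341) beside Smim27 (1509 and 83). Rbm10 had 2263.91 counts in replicate 1. The use of strand was not tested. Shmt2 had 240.2 TPM in replicate 1 against 91.1 TPM in replicate 2, the opposite order to Ndufa4l2. An alternative added after the data were seen took the 18 tested subunits with neither shared exon bases nor an identical copy among the 3 copies compared. Of these 12 were called lower and 1 higher, with a median log2 ratio of -2.13. Copies under other symbols were not searched for. Ndufs5 and Ndufa12, both among the 18, had estimated counts in replicate 1 that were not whole (3232.67 and 10657.27).

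The promoters of the members were searched for short letter patterns, among them those of factors known for respiratory genes. RefSeq windows (GRCm38.p6) from 250 bases before to 50 bases after the start were matched for 40 of the 49 genes and for 16522 protein-coding genes in all, on both strands. The letters AAGATGGC (reverse complement GCCATCTT), of the YY1 type, were in 8 of 40 member windows and in 3.27% of all windows. The letters GCATGCGC (reverse complement GCGCATGC), of the NRF1 type, were in 5 of 40 and in 3.77% of all. The ETS-type letters CCGGAAG were in 15.0% of member windows and 12.3% of all, the GC box GGGCGG in 52.5% and 48.2%, and the GATA-type letters AGATAA in 5.0% and 9.7%. The other patterns searched were the CCAAT box, in 35% and 38.8%, and the TATA box TATAAA, in 10% and 12.9%. These patterns can overlap one another, and a match is a description of letters, not of binding. All 8 YY1-type matches read in the direction of the gene and lay after the start site, and the pattern contains ATG, as a start codon does. The matches are shown for 4 subunits and an assembly factor, with the pattern in capitals.

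Ndufs7 (chr10:80249462-80249491, plus strand): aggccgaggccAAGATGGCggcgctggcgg
Ndufa9 (chr6:126849097-126849126, minus strand): cattgtgggagAAGATGGCggccgccgtcc
Ndufa6 (chr15:82354356-82354385, minus strand): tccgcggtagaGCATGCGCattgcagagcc
Ndufa8 (chr2:36049328-36049357, minus strand): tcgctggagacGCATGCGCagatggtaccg
Ndufaf4 (chr4:24897961-24897990, plus strand): cagatgtctgcGCATGCGCctgtgcggaag

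The YY1-type pattern starts at 25 bases after the start in Ndufs7 and at 30 in Ndufa9, whose gene levels were not called between the libraries. The NRF1-type pattern starts at -83 in Ndufa6, called lower, and at -8 in Ndufa8, not called. Among subunits with a window, 3 of 6 tested with the YY1-type letters and 17 of 25 tested without them were called lower. Yy1 itself had 72.4 TPM in replicate 1 against 180.9 TPM in replicate 2 and was called higher, and Nrf1 had 11.4 and 8.24 TPM and was not called. Of 9 regulators of respiratory genes listed, 8 were tested, 1 was called lower (Tfam, the mitochondrial DNA packaging factor, 2.39 and 1.82 TPM, log2 ratio of counts -2.43) and 1 higher. Ppargc1a, a coactivator of these genes, had 0 counts in both libraries. Any link of the promoter letters or of these regulators to the difference between the libraries was not tested.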

How the data were processed

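The deposited gene and transcript tables of both libraries were used. Per the labels the assembly was mm10. GENCODE M4 is named as annotation in the notes deposited with each library; the aligner, the quantifier with its version, and any use of strand are not stated in what was used here. The deposited estimated counts (expected counts) need not be whole and are not normalized. The deposited TPM values are corrected for effective length and scaled to a fixed sum per library, and the deposited FPKM values are per kilobase and per sequenced fragments. The deposited isoform percent is each transcript's share of its gene's TPM. Symbols, positions and transcript types came from GENCODE M21 by identifier without version, which named 42462 of 43346 genes; 26345 other entries, with 3 counts in the first library and 0 in the second, were left out.

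Levels are TPM, with mean ± SD over 2 libraries. Estimated counts were rounded and scaled by TMM (edgeR 4.0.16; factors 1.15 and 0.871). A mean CPM of 1 or more was required, which left 8884 genes, 45 of them members. Each was given an exact binomial test, two-sided, with Benjamini-Hochberg adjustment; log2 ratios used a prior count of 0.5. edgeR's quasi-likelihood test has no residual degrees of freedom with 1 library on each side. On simulated data of 8878 genes this comparison called 100 of 100 genes with a 3-fold change, 100 of 100 with an 8-fold change and 0 of 8678 unchanged ones. Counting error only was simulated. As many genes were raised as lowered, whereas 30.0% of the genes tested were called lower and 17.9% higher in the data. The scaling was thus not checked against a difference as broad or as one-sided. The changed genes were drawn from those with a mean of at least 10 CPM, so the simulation does not cover changes in members below that level. Copies were aligned with Biopython 1.88. DESeq2 1.42.0 gave alternative size factors. R 4.3.3 and Python 3.11.15 were used.

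The members and lists were chosen with earlier results of these data known. Named with values are the core subunits, all Ndufaf genes, the 3 highest and 3 lowest means of each accessory class, Ndufa4, Ndufa4l2, the copies and the 10 largest called differences in each direction; others were named after their values were seen. A gene that this rule takes in is not reported here by name; it stays in the counts and medians. Alternatives were other minimum levels, units, posterior means, scalings, folds, pseudocounts and single libraries.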

Additional observations from a re-analysis of the deposited data

How the results depend on the processing

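No paired analysis was possible because the labels give only 1 group, and leaving out a library leaves no comparison between libraries, so calls and log2 ratios have no such value. Scaling by total counts moved the median log2 ratio of all genes by -0.41; a change of scaling shifts all ratios alike. The subunit median relative to that of all genes was -1.67, -1.99 at a mean CPM of 10 and -1.52 with no minimum. The 32 called members gave 185 values under the scalings, filters, 1.5-fold rule and posterior means tried, of which 182 were still called and 3 were not (Ndufc2, Ndufab1 and Ndufaf6). The 13 members not called gave 73, of which 13 were called. The 1.5-fold rule cannot remove a call. The filters leave the ratios of tested members unchanged, so only the scalings and posterior means could bring a called member under 2-fold. At a mean CPM of 10, 12 members were not tested, 7 of them called otherwise.

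With a minimum of 5 TPM 3 assembly factors were detected in place of 6. Counting coding transcripts only, their median was 1.89 TPM in place of 4.10 TPM. Subunits called higher were 5 at 1.5-fold. Without shared exon bases or an identical copy among those compared, 1 of 18 was called higher and 12 were lower. With total counts 2 subunits were called higher. Assembly factors called lower were 5 with total counts, 5 at 1.5-fold and 0 of 2 tested at a mean CPM of 10. Those called higher were 0 with total counts and 0 at that minimum. The background moved too: of all genes tested, 40.1% were called lower and 10.6% higher with total counts. These shares were 39.6% and 27.3% at 1.5-fold, and 23.7% and 20.2% at a mean CPM of 10. From single libraries, subunits detected were 34 to 36, assembly factors detected 6 to 7, the median subunit 27.1 to 126.5 TPM, the median assembly factor 2.60 to 5.60 TPM and their log2 ratio 3.38 to 4.50. Depth limits the assembly factor calls, which rest on 451 counts in replicate 2.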
